A study of Mus musculus with 16 samples.

Results

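Kidney transcripts of FAN-treated mice under time-restricted feeding were compared with those of FAN-treated mice fed ad libitum. The comparison took the 4 FAN time-restricted and the 4 FAN ad libitum libraries, chosen by their column names, which is 8 of the 16 libraries of the series, and every gene of the count table. All 16 libraries came from kidneys of C57BL6 mice on a high-fat diet, taken on day 15 after FAN or vehicle. The other 8 were 4 vehicle ad libitum and 4 vehicle time-restricted libraries. Under ad libitum feeding food is always present, and under time-restricted feeding it is present for part of the day. The daily hours of access and the sex and age of the mice are not given in the sources used here. The labels do not spell out FAN, but the column names carry the word folic, and a high dose of folic acid is a standard way to injure mouse renal tubules. The labels do not tie libraries to separate animals, so p-values measure the spread between these libraries, which may be partly technical. FAN libraries are named by their column numbers, 6, 7, 10 and 12 for ad libitum and 6, 10, 11 and 12 for time-restricted, and per-library values follow this order.

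Proximal tubule cells take back most of the filtered solutes and pay for it by burning fatty acids in dense mitochondria. After tubular injury the surviving cells lose transporters and metabolic enzymes, macrophages enter the tissue, and fibroblasts and pericytes become matrix-secreting myofibroblasts, with TGF-beta as a main driver. During fasting the nuclear receptor PPAR-alpha, which senses fatty acids, switches on genes of fatty acid oxidation and ketone synthesis in liver and kidney.

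Total counts ran from 19266923 to 33035197 in the FAN ad libitum and from 12450812 to 28255417 in the FAN time-restricted libraries. None of the markers of 18 cell types was at 0 in all 8 FAN libraries. At these depths few markers could be, and those of adipocytes and adrenal cortex were not either. This therefore does not test the kidney label. The first principal component of the 8 libraries, with 47.5% of the variance, split them by feeding (exact permutation p = 0.0286, the smallest that 70 assignments give). The FAN column names also carry sheet positions, the S numbers that sequencing software assigns. Ad libitum 6 and 7 and time-restricted 6 hold earlier positions and the other 5 FAN libraries hold later ones. Many results are therefore also given for the later positions alone, 2 ad libitum against 3 time-restricted libraries.

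Time-restricted feeding in FAN mice went with higher transcripts of proximal tubule transport, respiration, fatty acid oxidation and gluconeogenesis, and with lower transcripts of matrix, myofibroblasts and macrophages. Of 17731 genes tested, 5639 (31.8%) passed edgeR's quasi-likelihood test (adjusted p under 0.05), 3180 (17.9%) higher and 2459 (13.9%) lower with time-restricted feeding. The log2 change was at least 1 for 1192 of the higher and 666 of the lower genes, and at least 2 for 210 and 70. The 4 libraries of one regimen lay wholly above or below the 4 of the other for 4960 genes (28.0%), 15.7% higher and 12.3% lower. Under the same test no gene differed between the feeding regimens in vehicle mice, where 1143 genes had an unadjusted p under 0.05, the smallest adjusted p was 0.0736, and DESeq2 called 58 and limma's voom 35 genes.

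The count of lower genes depended on single libraries. Without ad libitum 7 the test called 1555 genes lower, and without ad libitum 6 it called 1615. In the later sheet positions alone 1721 genes (9.86%) were higher and 408 (2.34%) lower. There the direction was kept by all 3125 higher genes still tested, 1530 of them called, and by 2426 of 2454 lower genes, 320 of them called. With libraries scaled by their total count in place of TMM, the median log2 change of all genes moved from −0.02 to −0.67, and 8.61% of 11502 called genes were higher against 56.4% with TMM. All 2459 lower genes were called lower under that scaling as well, while 2134 of the 3180 higher genes kept their sign and 990 their call. Changes below stand relative to the median of all genes under TMM, and the sign change of a whole list's median with the scaling is given beside its counts. The median log2 change fell from 0.20 in the shortest to −0.21 in the longest of 5 classes of transcript length, and from 0.07 to −0.12 in the later positions.

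**Figure D1:**
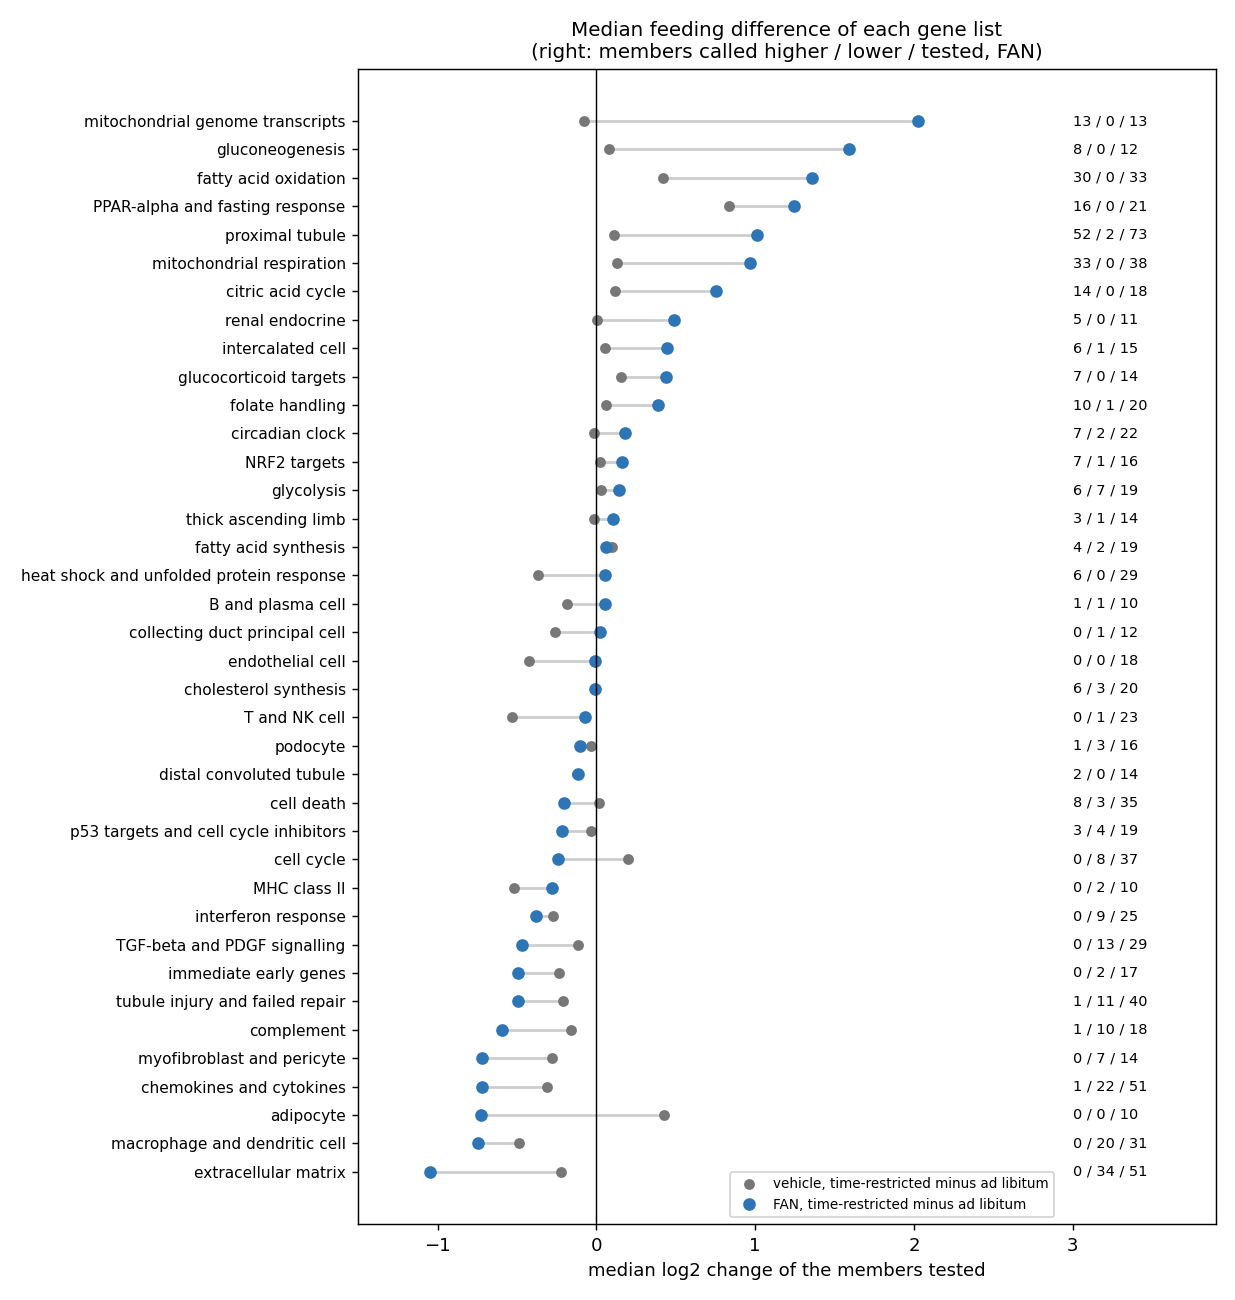
Median log2 change with time-restricted feeding of each gene list with at least 10 members tested, in FAN (blue) and in vehicle (grey). Numbers on the right are members called higher, called lower and tested in FAN. Mitochondrial and proximal tubule lists lie to the right and extracellular matrix and macrophage lists to the left, and the blue points span a wider range than the grey ones.

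Transcripts of proximal tubule transporters and enzymes were higher with time-restricted feeding. Of 73 genes of the proximal tubule list 52 rose and 2 fell, with a median log2 change of 1.01, and 49 rose and 0 fell in the later sheet positions. Without ad libitum 6 no member of the list fell, and without ad libitum 7 or time-restricted 6 or 12 a single one did. With library size scaling 33 of its members rose and 8 fell, with a median of 0.39. The summed level of 6 defining markers of this cell type ran from 791 to 2212 CPM (counts scaled by library total and TMM factor) in the ad libitum and from 3054 to 3929 CPM in the time-restricted libraries. In whole kidney, fewer proximal tubule cells and less RNA per cell cannot be told apart.

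Endocytic receptors recover filtered proteins and vitamins. Lrp2, which encodes the receptor megalin (ENSMUSG00000027070, GRCm38 chromosome 2, 69424340 to 69586065), measured 510.1, 377, 415 and 240.2 CPM in the ad libitum and 1105, 852, 1047 and 1154 CPM in the time-restricted libraries. Every time-restricted library lay above every ad libitum one, with a log2 change of 1.43 ± 0.19, where ± gives the standard error here and below (adjusted p = 2.16e-05, edgeR). The partner receptor gene Cubn rose by 1.0. Of 5 endocytic genes 4 rose.

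Transporters of organic anions and cations, which secrete drugs and metabolites, were higher in nearly every case. Of 13 tested 12 rose, with a median log2 change of 1.5. Slc22a7, which encodes the anion transporter OAT2 (ENSMUSG00000067144, GRCm38 chromosome 17, 46432183 to 46438457), measured 11.2, 10.1, 18.6 and 8.82 CPM with ad libitum and 110.1, 106, 71.2 and 117 CPM with time-restricted feeding. The groups did not overlap, as the rule that picked this gene required, and the log2 change was 3.05 ± 0.35 (adjusted p = 7.47e-06, edgeR). The anion transporter gene Slco1a1 rose by 3.16, Slc22a30 by 2.33 and the drug transporter gene Slc22a6 by 1.59.

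Other transport classes followed in part. Of the amino acid and peptide carriers 8 of 10 rose, among them Slc6a20b (1.61), which carries proline, the glutamate transporter gene Slc1a1 (1.37) and Slc3a1 (0.88), a subunit of the cystine transporter. Of the glucose and fructose carriers 4 of 6 rose. The main glucose transporter gene Slc5a2 was not among them: it measured 46.4, 47.3, 17.8 and 10.8 CPM with ad libitum and 33.9, 24.2, 26.8 and 41.4 CPM with time-restricted feeding, a log2 change of 0.04 ± 0.46 (adjusted p = 0.959). Its groups overlapped, with the highest ad libitum values in libraries 6 and 7. In the later positions its log2 change was 1.11 (adjusted p = 0.0528).

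Of the phosphate, calcium and vitamin D genes 3 of 8 rose and 1 fell, and their median of 0.35 became −0.28 with library size scaling. Slc34a1, the main phosphate transporter gene, measured 1093, 928, 407 and 341 CPM and 1521, 1355, 1485 and 1751 CPM in the same order, a log2 change of 1.14 ± 0.28 (adjusted p = 0.0048). Its lowest values were in ad libitum 10 and 12. Pdzk1, which anchors transporters in the brush border, rose by 1.18. In the group of brush border and conjugating enzymes, which also holds the androgen-regulated gene Kap, 12 of 15 rose, Kap the most (2.71). Among acid-base and ammonia genes 6 of 8 rose.

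Transcription factors of the proximal tubule did not move as a group. Of 8 tested 3 rose and 1 fell, and their median of 0.42 became −0.24 with library size scaling. Hnf4a, the nuclear receptor that maintains proximal tubule identity (ENSMUSG00000017950, GRCm38 chromosome 2, 163506808 to 163572910), measured 220.4, 195, 172 and 121 CPM in the ad libitum and 345, 350.3, 360.5 and 435 CPM in the time-restricted libraries. All time-restricted values were higher, with a log2 change of 1.07 ± 0.16 (adjusted p = 5.66e-05).

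Since Hnf4a and many transporters rose together, promoters were searched for a short HNF4 motif, CAAAGTCCA, on both strands of RefSeq windows on GRCm38.p6 from 250 bases before to 50 after each start. The motif stood in 0.555% of all 27025 genes with a window, in 0.556% of the 12587 tested genes, in 1.04% of the 2409 higher and in 0.373% of the 1876 lower genes with one. In the proximal tubule list 3 of 56 genes with a window held it, Pdzk1, Slc3a1 and Treh, and the first pair is printed with the motif in capitals because both rose. The Pdzk1 window also holds the PPAR pattern described further on. The Pdzk1 window is chr3:96829815-96830114 and the Slc3a1 window chr17:85028097-85028396, both on the plus strand.
Pdzk1: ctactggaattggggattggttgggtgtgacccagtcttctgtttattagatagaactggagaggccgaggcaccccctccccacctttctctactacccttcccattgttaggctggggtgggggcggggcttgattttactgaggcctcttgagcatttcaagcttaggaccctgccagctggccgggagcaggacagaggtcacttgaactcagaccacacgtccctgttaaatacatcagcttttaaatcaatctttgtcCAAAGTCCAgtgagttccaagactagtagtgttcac
Slc3a1: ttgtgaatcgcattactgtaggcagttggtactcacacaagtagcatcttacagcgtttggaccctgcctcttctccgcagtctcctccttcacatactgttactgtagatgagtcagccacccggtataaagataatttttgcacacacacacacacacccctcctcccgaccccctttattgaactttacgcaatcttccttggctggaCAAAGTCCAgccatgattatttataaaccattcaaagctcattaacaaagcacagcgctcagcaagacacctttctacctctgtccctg
The match starts 14 bases after the Pdzk1 start site and 39 bases before that of Slc3a1. A match of letters is not evidence of binding.

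**Figure D2:**
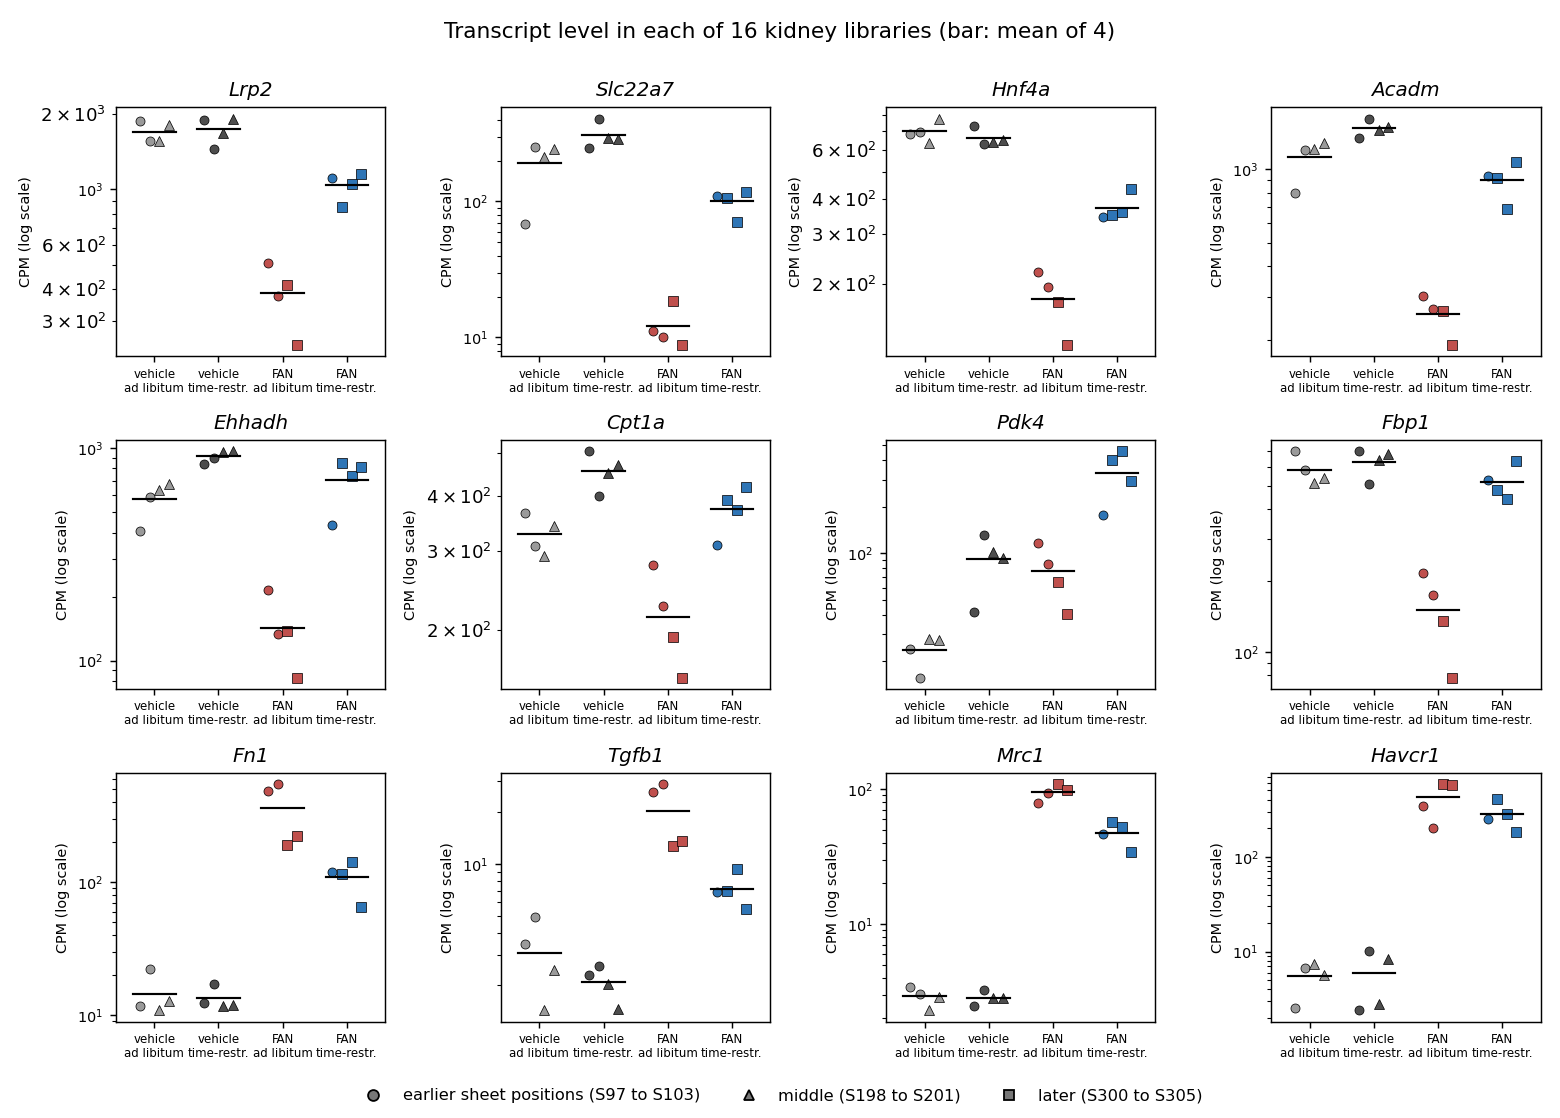
Level of 12 transcripts in each of the 16 libraries, in CPM on a log axis. Symbols mark sheet position, colours the 4 groups and bars the group means. Lrp2, Slc22a7, Hnf4a, Acadm and Fbp1 show 4 time-restricted FAN libraries above 4 ad libitum ones, Fn1, Tgfb1 and Mrc1 the reverse, and Havcr1 overlaps.

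Transcripts of the mitochondrial genome made up a larger part of the time-restricted libraries. Their share of all counts was 7.29%, 6.94%, 14.8% and 12.1% with ad libitum and 25.8%, 25.8%, 21.4% and 26.7% with time-restricted feeding. Means were 10.3% ± 3.83 and 24.9% ± 2.4 (SD, n = 4), and all 4 time-restricted libraries lay above all 4 ad libitum ones (two-sided exact permutation p = 0.0286, the smallest 70 assignments give). In vehicle mice the means were 20.3% ± 2.32 and 19.8% ± 1.35 (exact permutation p = 0.714). The lower share of ad libitum libraries thus held in both sheet position classes, and it was lowest in the earlier ones. All 13 mitochondrially encoded protein genes rose, with a median log2 change of 2.03, among them the complex I subunits mt-Nd2 (2.48), mt-Nd5 (1.94) and mt-Nd6 (1.87).

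**Figure D3:**
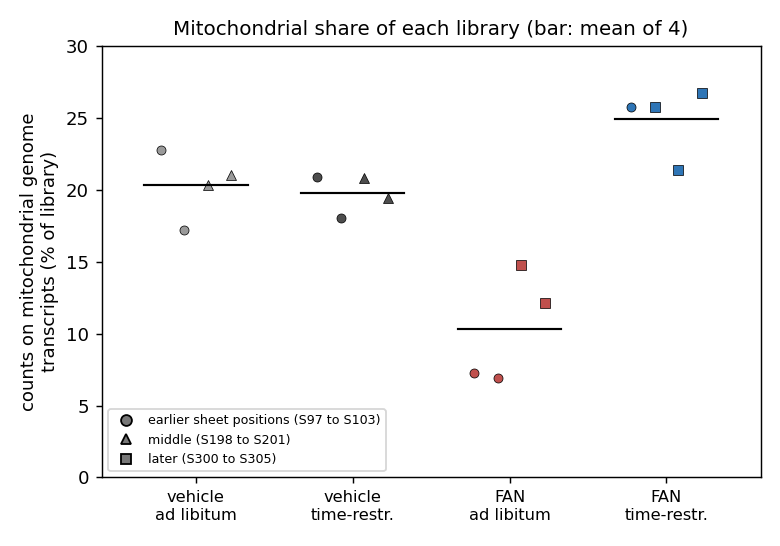
Percent of each library's counts on transcripts of the mitochondrial genome, by group, with bars at the mean of 4 libraries and symbols for sheet position. FAN ad libitum libraries lie between 6.94% and 14.8% and FAN time-restricted libraries between 21.4% and 26.7%, and the vehicle groups lie between these ranges or overlap the latter.

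Nuclear genes of respiration moved the same way. Respiratory complexes pass electrons to oxygen and ATP synthase uses the resulting gradient. All 10 complex I subunits, all 14 genes of complexes II to IV and electron carriers and all 6 ATP synthase subunits rose, with medians of 1.04, 1.06 and 1.07. Sdhb, the iron-sulfur subunit of complex II (ENSMUSG00000009863, GRCm38 chromosome 4, 140961203 to 140979193), measured 147, 152, 215 and 163 CPM with ad libitum and 416, 440.2, 434 and 483 CPM with time-restricted feeding. The groups did not overlap, and the log2 change was 1.39 ± 0.14 (adjusted p = 9.74e-07). Uqcrfs1 of complex III rose by 1.31 and its partner Cyc1 by 1.07.

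Regulators of mitochondrial genes were less uniform: 3 of 8 rose, with a median of 0.09 that became −0.56 with library size scaling. The coactivator gene Ppargc1a measured 48.2, 55.1, 58.5 and 31.8 CPM with ad libitum and 69.8, 51.8, 34 and 53.7 CPM with time-restricted feeding, a log2 change of 0.11 ± 0.22 (adjusted p = 0.725). Its groups overlapped. Of 18 citric acid cycle genes 14 rose, with Suclg1 at 1.15, Fh1 at 1.11 and Idh3g at 1.02. In the later positions 29 of 38 respiration genes and 13 of 18 citric acid cycle genes rose. Under library size scaling 21 respiration genes rose and 5 fell, with a median of 0.32. For the citric acid cycle 4 rose and 2 fell under that scaling, and the median went from 0.76 to 0.11.

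Fatty acid oxidation was the list with the largest share of higher genes among nuclear lists of at least 20 members tested. Of 33 genes 30 rose and none fell, with a median of 1.36, and 30 rose in the later positions. Scaled by library size, 24 rose and none fell. Acadm, the medium-chain acyl-CoA dehydrogenase of beta-oxidation (ENSMUSG00000062908, GRCm38 chromosome 3, 153922357 to 153944632), measured 301, 267, 262 and 191 CPM with ad libitum and 937, 918, 687 and 1074 CPM with time-restricted feeding. No values overlapped, and the log2 change was 1.82 ± 0.18 (adjusted p = 9.99e-07). Of the beta-oxidation enzymes 13 of 15 rose, including Hadh (1.51) and Eci2 (1.36).

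Uptake and shuttle genes rose in 8 of 9 cases. Cpt1a, the gate of fatty acid entry into mitochondria, measured 279, 226, 192 and 156 CPM and 310.1, 390.4, 371 and 419 CPM, a log2 change of 0.81 ± 0.16 (adjusted p = 0.000917). Peroxisomes shorten very long chains, and all 9 peroxisomal genes rose, with a median of 1.54. Ehhadh, the bifunctional peroxisomal enzyme, measured 214, 134, 137 and 83.3 CPM with ad libitum and 434, 848, 739 and 811 CPM with time-restricted feeding, a log2 change of 2.32 ± 0.25 (adjusted p = 2.90e-06). Its lowest time-restricted value was that of library 6. The peroxisome division gene Pex11a rose by 1.38.

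Targets of PPAR-alpha and of the fasting response rose in 16 of 21 cases, with a median of 1.25, and 15 rose in the later positions. Scaled by library size, 11 rose and 2 fell. Pdk4, which holds back glucose oxidation in fasting, measured 116, 85.1, 65.3 and 40.5 CPM and 178, 403, 458 and 293 CPM, a log2 change of 2.12 ± 0.37 (adjusted p = 0.000559), and its groups did not overlap.

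The gene of PPAR-alpha itself, Ppara, measured 15.2, 13.4, 5.76 and 4.59 CPM with ad libitum and 10.3, 11.4, 10.1 and 19 CPM with time-restricted feeding, with no call over 8 libraries (log2 change 0.37 ± 0.34, adjusted p = 0.434). In the later positions its log2 change was 1.38 (adjusted p = 0.0239, edgeR), and in the earlier ones, with a lone time-restricted library, it was −0.50. The pantetheinase gene Vnn1 rose by 2.14 and the fatty acid hydroxylase genes Cyp4a10 by 2.38 and Cyp4a14 by 3.01 (adjusted p = 0.0531 without ad libitum 7). Cyp4a genes are near-identical and can share reads. Fabp1, the fatty acid binding protein of liver, measured 0.859, 0.431, 3 and 0.335 CPM with ad libitum and 0.7, 10.2, 14.4 and 2.23 CPM with time-restricted feeding. Its groups overlapped, and its log2 change of 2.67 ± 0.82 (adjusted p = 0.0216) lost its call without ad libitum 6, 7 or 12 or time-restricted 10 or 11 (adjusted p = 0.0539 to 0.0745).

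PPAR receptors bind pairs of AGGTCA-like letters spaced by a single base. The pattern AGGNCA, any base, AGGNCA was searched on both strands of the same promoter windows. It stood in 0.451% of all genes with a window, in 0.365% of tested, 0.332% of higher and 0.32% of lower genes. In the PPAR-alpha and fasting list 1 of 16 genes with a window held it, Fabp1, and in the fatty acid oxidation list 0 of 29. The Fabp1 window (chr6:71199629-71199928, plus strand) is shown as the only list member with a match, which is in capitals and reads on the opposite strand.
Fabp1: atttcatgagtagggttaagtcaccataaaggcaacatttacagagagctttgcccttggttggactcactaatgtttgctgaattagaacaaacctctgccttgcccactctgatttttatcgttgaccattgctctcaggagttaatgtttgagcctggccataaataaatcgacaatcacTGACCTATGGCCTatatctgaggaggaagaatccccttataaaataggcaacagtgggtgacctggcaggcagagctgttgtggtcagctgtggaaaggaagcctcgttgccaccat
The match begins 67 bases before the start site. Absence of these letters from other windows says only that they are not within 250 bases before and 50 after the start.

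In vehicle mice Pdk4 was on average higher with time-restricted feeding too, without a call. There it measured 24, 15.7, 28.1 and 27.3 CPM with ad libitum and 41.8, 131, 102.4 and 93.2 CPM with time-restricted feeding, a log2 change of 1.96 ± 0.38 (adjusted p = 0.151). The difference of its feeding change between FAN and vehicle was 0.16 ± 0.51 (adjusted p = 0.894). This difference did not pass, which does not show that the changes were alike. The median vehicle change was 0.84 for the PPAR-alpha and fasting list, 0.42 for fatty acid oxidation and 0.11 for proximal tubule.

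The interaction of feeding and FAN, which tests whether the feeding change in FAN differs from that in vehicle, passed for 1625 of 17731 genes (9.16%), 1376 (7.76%) with a higher and 249 (1.4%) with a lower change in FAN. The lower count was 126 without FAN ad libitum 7, 135 without FAN ad libitum 6 or vehicle ad libitum 4, 138 without FAN time-restricted 12 or vehicle time-restricted 2 or 3, 154 without FAN time-restricted 10 and 552 without FAN ad libitum 10. It passed for 21 of 33 fatty acid oxidation, 32 of 73 proximal tubule, 30 of 38 respiration and all 13 mitochondrial genome genes, with the higher change in FAN for every such gene. In the PPAR-alpha and fasting list it passed for 5 of 21, among them Bdh1, Cyp4a10, Vnn1 and Klf15. In lists whose median fell it passed for 6 of all 51 matrix and 2 of all 31 macrophage and dendritic cell genes tested. For the others of these lists a difference between FAN and vehicle was not shown. Sheet positions were spread evenly over the regimens in vehicle but not in FAN. The interaction was not fitted with sheet position, so its part in these calls was not tested.

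**Figure D4:**
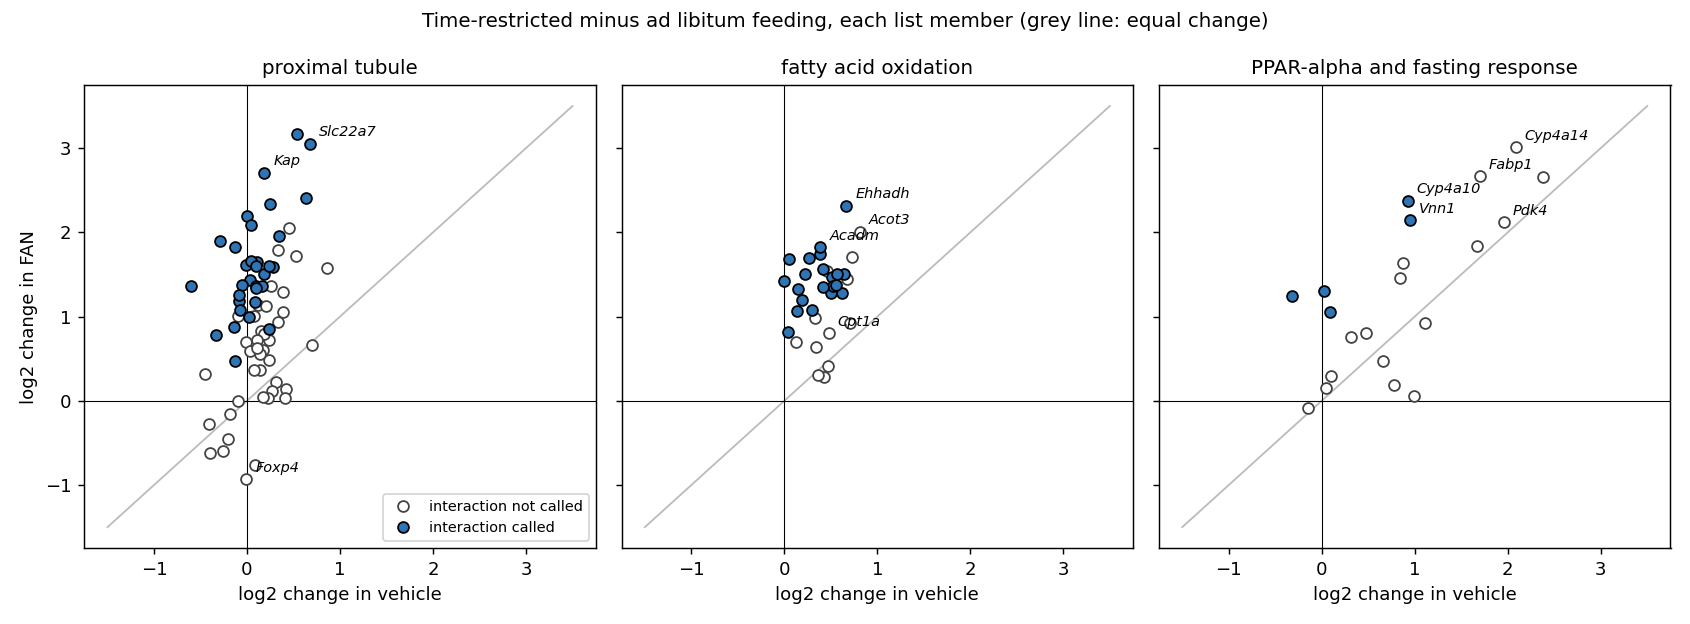
Log2 change with time-restricted feeding in FAN (vertical) against that in vehicle (horizontal) for each member of 3 lists, with filled points where the interaction was called. Most proximal tubule and fatty acid oxidation genes lie well above the grey line of equal change, while Pdk4 lies near it.

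The smallest interaction p on the higher side belonged to 0610006L08Rik, the aminoacylase gene Acy1, the acetyltransferase gene Nat8, Cmbl, the steroid dehydrogenase gene Hsd3b3 and Sugct. Acy1 measured 25.6 ± 3.52 CPM with ad libitum and 102.6 ± 11 CPM with time-restricted feeding in FAN mice, and 309 ± 26.9 and 292 ± 19.8 CPM in vehicle mice (mean ± SD, n = 4). Its feeding change was 2.0 in FAN and −0.08 in vehicle, a difference of 2.08 ± 0.17 (adjusted p = 3.24e-06). On the lower side stood the cell cycle kinase gene Cdk6, the matrix peroxidase gene Pxdn, the collagen gene Col5a2, Tmem132a, the kinase gene Mapkapk3 and Nrep. Col5a2 measured 104 ± 21.9, 46.9 ± 10.8, 14.2 ± 3.51 and 22.4 ± 8.09 CPM in the same order, with a difference of feeding changes of −1.80 ± 0.33 (adjusted p = 0.00206).

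Gluconeogenesis, which the proximal tubule shares with liver, rose in 8 of 12 genes, with a median of 1.59. Scaled by library size, 8 rose and 2 fell. Fbp1, which encodes the rate-controlling bisphosphatase, measured 215, 174, 135 and 78.3 CPM with ad libitum and 528, 480.4, 439 and 636 CPM with time-restricted feeding. The groups did not overlap, and the log2 change was 1.79 ± 0.23 (adjusted p = 1.65e-05). Slc37a4, the glucose-6-phosphate transporter, rose by 1.65, and the fructose kinase gene Khk by 1.63. Glycolysis was mixed, with 6 of 19 higher and 7 lower, beside 17.9% higher and 13.9% lower of all genes tested. Lower genes numbered 2 without ad libitum 6 and 3 without ad libitum 7 or time-restricted 6, 10 or 11. The list median, 0.14, was −0.51 under library size scaling. Tpi1 (0.74), Pgk1 (0.74) and the lactate carrier gene Slc16a1 (0.70) rose. Hk2, the inducible hexokinase, measured 24.6, 26, 15.5 and 20.5 CPM with ad libitum and 9.07, 6.56, 9.82 and 4.27 CPM with time-restricted feeding. Its log2 change of −1.53 ± 0.52 (adjusted p = 0.0359) passed over 8 libraries and missed without ad libitum 6, 7 or 12 or time-restricted 6, 10 or 12 (adjusted p = 0.057 to 0.0933).

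Lipid synthesis genes moved in both directions. In the fatty acid list 4 of 19 rose and 2 fell, beside 17.9% higher and 13.9% lower of all genes tested, and its median, 0.06, was −0.58 under library size scaling. Me1 (1.74), which makes NADPH, Acss2 (1.30), which activates acetate, and Gpam (1.02), which starts triglyceride synthesis, rose, while the regulator gene Srebf1 fell by 0.93. Fasn measured 50.2, 99.9, 18.9 and 22.7 CPM and 22.5, 21.3, 19.9 and 25.3 CPM, a log2 change of −1.11 ± 0.56 (adjusted p = 0.145), with the 2 highest values in ad libitum 6 and 7. In the cholesterol list 6 of 20 rose and 3 fell, with Hmgcs1 at 1.63 and Cyp51 at 1.30. A single cholesterol gene fell without ad libitum 6 or 7, and 4 fatty acid synthesis genes fell without ad libitum 12.

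Extracellular matrix transcripts were lower with time-restricted feeding. Of 51 genes 34 fell and none rose, with a median of −1.05, and 7 fell in the later positions, where the median was −0.57. Fn1, which encodes fibronectin (ENSMUSG00000026193, GRCm38 chromosome 1, 71585520 to 71653200), measured 485, 549.5, 191 and 222 CPM with ad libitum and 120.0, 115, 141 and 65.3 CPM with time-restricted feeding. Every time-restricted value was below every ad libitum one, and ad libitum 6 and 7 stood above 10 and 12. The log2 change was −1.71 ± 0.33 (adjusted p = 0.00104), and −0.93 in the later positions (adjusted p = 0.0801).

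Glycoproteins and proteoglycans fell in 13 of 16 cases, among them Postn (−1.74), which encodes periostin. Fibrillar and beaded collagens fell in 6 of 8. Col1a1, the main fibrillar collagen chain, measured 190.4, 249, 46.6 and 97.3 CPM and 55.1, 42.3, 79.3 and 19.8 CPM, and Col3a1 changed by −0.89 ± 0.29 (adjusted p = 0.0263). Ad libitum 6 and 7 were the highest for Col1a1, and the groups overlapped. Its log2 change of −1.56 ± 0.51 (adjusted p = 0.0303) lost its call without ad libitum 6 or 7 or time-restricted 6, 10 or 12 (adjusted p = 0.0597 to 0.115), and that of Col3a1 without ad libitum 6, 7 or 12 or time-restricted 10 or 12 (0.0543 to 0.0841). Basement membrane genes fell in 8 of 10, with Col4a1 at −1.16 and Lamb1 at −0.66. Proteases and inhibitors fell in 6 of 11 and cross-linking enzymes in 1 of 6, beside 13.9% lower of all genes tested.

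Signals that drive matrix production were lower too. In the TGF-beta and PDGF list 13 of 29 fell and 0 rose, with a median of −0.47. In the later positions the median was −0.48. No member was called lower there, beside 2.34% of all genes tested. By edgeR's test 1 was called higher, beside 9.86% of all genes. It was Bmp7, a ligand gene named after its values were seen (0.95 in the later positions, adjusted p = 0.0119, and 0.42 over 8 libraries, adjusted p = 0.0847, or −0.24 with library size scaling). Of the ligands 6 of 11 fell. Tgfb1 (ENSMUSG00000002603, GRCm38 chromosome 7, 25687002 to 25705077) measured 26, 28.8, 12.7 and 13.5 CPM with ad libitum and 6.93, 6.96, 9.39 and 5.48 CPM with time-restricted feeding, a log2 change of −1.49 ± 0.32 (adjusted p = 0.00181). No values overlapped, and ad libitum 6 and 7 were the highest. Pdgfb, a growth factor for pericytes, fell by 1.10 and the signal protein gene Smad3 by 0.80. Of the receptors 3 of 8 fell and of signal proteins and inhibitors 4 of 10.

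Of 14 myofibroblast and pericyte markers 7 fell, and 2 did in the later positions. Acta2, the smooth muscle actin of myofibroblasts (ENSMUSG00000035783, GRCm38 chromosome 19, 34241090 to 34255590), measured 87, 80.9, 69.9 and 67.3 CPM with ad libitum and 28.2, 18.9, 39.4 and 24.5 CPM with time-restricted feeding. All time-restricted values were below all ad libitum ones, and the log2 change was −1.46 ± 0.32 (adjusted p = 0.0027). Thy1 fell by 1.39 and the receptor gene Notch3 by 1.03. Summed over 4 fibroblast and pericyte markers the level ran from 279 to 362 CPM with ad libitum and from 211 to 266 CPM with time-restricted feeding.

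A minority of tubule injury markers fell. Of 40 genes 11 fell and 1 rose, with a median of −0.50, and 7 fell in the later positions. Havcr1, the gene of KIM-1, which injured tubules shed (ENSMUSG00000040405, GRCm38 chromosome 11, 46735080 to 46779578), was at 342, 203, 586 and 576 CPM with ad libitum and 248, 403, 285 and 184 CPM with time-restricted feeding. The groups overlapped, the highest values were those of ad libitum 10 and 12, and the log2 change of −0.61 ± 0.44 did not pass (adjusted p = 0.314). Vcam1 (−0.27 ± 0.24, adjusted p = 0.397), the osteopontin gene Spp1 (−0.57 ± 0.24, adjusted p = 0.0808, 0.0452 without ad libitum 7 and 0.0496 without time-restricted 10) and the repair factor gene Sox9 (−0.51 ± 0.35, adjusted p = 0.275) did not pass either.

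Lcn2, the gene of NGAL, an iron-carrier binding protein of injured tubules (ENSMUSG00000026822, GRCm38 chromosome 2, 32384633 to 32388252), measured 355, 379, 286 and 343 CPM with ad libitum and 125, 117, 148 and 66.8 CPM with time-restricted feeding. No values overlapped, and the log2 change was −1.58 ± 0.38 (adjusted p = 0.00537). The clusterin gene Clu (−1.42), the protease inhibitor gene Timp1 (−1.28), Dcdc2a (−1.14) and the tropomyosin gene Tpm1 (−1.03) fell. None of 6 transcription factors of injured epithelium passed, and Krt20 had a log2 change of −0.55 (adjusted p = 0.638).

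Macrophage transcripts were lower. Of 23 macrophage genes 17 fell and none rose, with a median of −0.76, and 6 fell in the later positions. The summed level of 4 defining markers ran from 468 to 566 CPM with ad libitum and from 207 to 391 CPM with time-restricted feeding, so these groups did not overlap. Arg1, the arginase of such macrophages (ENSMUSG00000019987, GRCm38 chromosome 10, 24915221 to 24927484), measured 5.59, 6.13, 12.9 and 16.2 CPM with ad libitum and 0.661, 0.875, 0.432 and 0.186 CPM with time-restricted feeding. Its log2 change was −4.14 ± 0.42 (adjusted p = 1.32e-06, edgeR). No values overlapped, which was a condition of a rule that picked this gene. The value of time-restricted 12 lay below the level of 3 counts in that library (0.241 CPM), so the size of the change is poorly measured. Arg1 is also expressed by some tubule cells.

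Gpnmb fell by 2.40, the haemoglobin scavenger receptor gene Cd163 by 2.05 and the mannose receptor gene Mrc1 by 0.99. Adgre1, which encodes the pan-macrophage antigen F4/80, measured 56, 51.1, 56.6 and 53.1 CPM and 32.8, 34.7, 39.5 and 19.6 CPM, a log2 change of −0.77 ± 0.22 (adjusted p = 0.0117). For the next counts the share over all genes tested was 13.9% lower. Of 8 dendritic cell genes 3 fell. Of 7 neutrophil genes 2 fell, Csf3r (−0.99) and Mmp8 (−1.46, adjusted p = 0.0556 without time-restricted 11 and 0.0521 without time-restricted 12). In the later positions no dendritic cell or neutrophil gene was called lower, beside 2.34% of all genes tested.

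Of 23 T and NK cell genes only Foxp3, the factor of regulatory T cells, passed, at −1.55 ± 0.52 (adjusted p = 0.0288). It did not pass without ad libitum 6, 7 or 12 or time-restricted 6 or 12 (adjusted p = 0.0586 to 0.0865). In the B and plasma cell list the antibody joining chain gene Jchain rose by 1.84 and Sdc1, which tubule cells also express, fell by 0.94, and the list's median was 0.05, or −0.60 with library size scaling. The Jchain call was lost without ad libitum 6, 7 or 10 or time-restricted 10 or 12 (adjusted p = 0.0523 to 0.0683). Of 10 MHC class II genes 2 fell, the invariant chain gene Cd74 (−1.05) and its regulator Ciita (−0.77). Over all genes tested 13.9% were lower. In the later positions no MHC class II gene was called lower, beside 2.34% of all genes tested.

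Among inflammatory genes, receptors and signal proteins had the largest share of lower genes. Of 16 such genes 12 fell and 1 rose, beside 13.9% lower of all genes tested. Of 12 CC chemokines 5 fell, of 10 CXC and CX3C chemokines 2 and of 13 cytokines 3. In the later positions 2 of the receptor and signal protein genes fell. Nfkb1, a subunit of the transcription factor NF-kappaB, measured 80.3, 79.3, 52.5 and 57.2 CPM with ad libitum and 34.6, 40.7, 32.9 and 29.1 CPM with time-restricted feeding. The groups did not overlap, and the log2 change was −0.97 ± 0.15 (adjusted p = 0.000136). Stat3, which relays cytokine signals, fell by 1.01 and the chemokine gene Cx3cl1 by 1.01.

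The chemokine gene Ccl2, which recruits monocytes, measured 19.6, 11.2, 32.5 and 24.6 CPM with ad libitum and 20.9, 29, 23.5 and 15.2 CPM with time-restricted feeding (log2 change 0.02 ± 0.41, adjusted p = 0.976). Its groups overlapped. Il1b had a log2 change of −0.82 (adjusted p = 0.105), and −1.41 without time-restricted 11 (adjusted p = 0.00457). Il6 fell as well (adjusted p = 0.00169), at 0.796, 0.944, 1.14 and 1.19 CPM with ad libitum and 0.272, 0.0875, 0.118 and 0 CPM with time-restricted feeding, where the last 3 libraries lay near or below the level of 3 counts. Of 25 interferon-induced genes 9 fell, with Oas2 at −1.06, Oasl2 at −1.0 and Stat2 at −0.59. None of the 25 was called in the later positions, where 2.34% of all genes tested were lower. Their median there was −0.42 (−0.38 over 8 libraries). Of 18 complement genes 10 fell and 1 rose, with 5 or 6 falling without ad libitum 6, 7 or 12 or time-restricted 6 or 12. In the later positions 1 complement gene fell and 1 rose. The receptor gene C5ar1 (−1.44) and C4b (−0.95) fell, C3 had a log2 change of −0.79 (adjusted p = 0.0709, and 0.0496 without time-restricted 10), and Cd55, which protects cells from complement, rose by 1.46.

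Over all genes tested 17.9% were higher and 13.9% lower, against which the cell cycle and cell death counts stand. Of 37 cell cycle genes 8 fell, and 3 did without ad libitum 6 or 7 or time-restricted 10 or 12. The cyclin genes Ccnd1 (−0.98) and Ccnd2 (−0.72) and the replication gene Mcm4 (−0.54) were among them. The proliferation marker gene Mki67 measured 41.3, 34.6, 40.8 and 43.1 CPM and 51.8, 29.8, 28.7 and 24.5 CPM (log2 change −0.24 ± 0.21, adjusted p = 0.404, edgeR). Its log2 change was −0.59 in the later positions (adjusted p = 0.0248) and 0.42 in the earlier ones, which hold a lone time-restricted library. Without time-restricted 6 Mki67 passed (adjusted p = 0.0465). Of 19 p53 targets and inhibitors 3 rose and 4 fell, with Zmat3 at −0.69, Plk2 at −0.94, the death receptor gene Fas at 0.54 (−0.09 with library size scaling) and the cell cycle inhibitor gene Cdkn1a at −0.76. A single p53 gene rose without ad libitum 6, and 2 fell without time-restricted 10 or 12. The Cdkn1a call was lost without ad libitum 6 or 7 or time-restricted 6, 10 or 12 (adjusted p = 0.0762 to 0.124).

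Among ferroptosis genes 5 of 13 rose and 1 fell, with a median of 0.04 that became −0.59 with library size scaling. Gpx4, which removes lipid peroxides, rose by 1.27 and the ferritin chain gene Fth1 by 1.27. Slc7a11, the cystine importer that feeds glutathione synthesis, measured 1.3, 2.36, 1.81 and 2.27 CPM with ad libitum and 0.623, 0.612, 0.393 and 0.743 CPM with time-restricted feeding, a log2 change of −1.73 ± 0.47 (adjusted p = 0.00979). All ad libitum values were above all time-restricted ones. Over all cell death genes 8 of 35 were called higher and 3 lower, a single one falling without ad libitum 6 or 7 or time-restricted 12. The pore-forming gene Gsdme rose by 0.92. In the NRF2 target list, which shares Slc7a11 and Me1, 7 of 16 rose and 1 fell, with Gclm at 1.14 and Nqo1 at 0.85, and its median, 0.16, was −0.49 under library size scaling. Hmox1 had a log2 change of 0.17 (adjusted p = 0.611).

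For the other nephron segments and vessels the counts stand beside 17.9% higher and 13.9% lower over all genes tested. Those rising and falling were 3 and 1 of 14 in the thick ascending limb, 2 and 0 of 14 in the distal convoluted tubule, 0 and 1 of 12 in collecting duct principal cells, 1 and 3 of 16 in podocytes and 0 and 0 of 18 in endothelial cells, where 4 had an unadjusted p under 0.05 by edgeR and 1 to 3 were called without ad libitum 10 or 12 or time-restricted 6 or 12. The medians of the thick ascending limb and principal cell lists, 0.10 and 0.02, became −0.55 and −0.66 with library size scaling. Intercalated cells, which secrete acid or base, had 6 higher and 1 lower of 15, with a median of 0.45 that became −0.19 with library size scaling. No intercalated cell gene fell without ad libitum 6 or 7 or time-restricted 6 or 11, and 2 did without ad libitum 12. Atp6v1g3 (0.92) and Atp6v1c2 (0.80) of the proton pump and the exchanger gene Slc26a4 (1.0) rose.

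Umod, which encodes uromodulin of the thick limb, measured 1236, 1296, 1120 and 573 CPM with ad libitum and 743, 796, 408 and 905 CPM with time-restricted feeding. Its groups overlapped (log2 change −0.57 ± 0.25, adjusted p = 0.0964, and 0.0143 without ad libitum 12). The salt transporter gene Slc12a3 had a log2 change of −0.60 (adjusted p = 0.0553, 0.0105 without ad libitum 12 and 0.0419 without time-restricted 11) and the water channel gene Aqp2 one of 0.05 (adjusted p = 0.964). Egf measured 242, 201.2, 131 and 46.6 CPM and 326, 278, 172 and 434 CPM, and its log2 change of 0.96 ± 0.36 (adjusted p = 0.0489) lost its call without ad libitum 7, 10 or 12 or time-restricted 6, 10 or 12 (adjusted p = 0.0522 to 0.152). The tight junction genes Cldn10 (0.84) and Cldn19 (−0.78), Pvalb (1.36), the sodium pump regulator gene Fxyd2 (1.31), the sodium channel gene Scnn1a (−0.99) and the podocyte genes Clic5 (0.60, −0.05 with library size scaling), Synpo (−0.85) and Nes (−1.04) passed. In podocytes 1 gene fell without ad libitum 6 or 7 or time-restricted 12. In the thick limb 1 rose without ad libitum 12 or time-restricted 6 or 10, and 3 fell without ad libitum 12. Of these genes, Cldn19, Scnn1a and Nes lost their calls when single libraries were left out, Cldn19 without ad libitum 7 or time-restricted 10 or 11, Scnn1a without ad libitum 6 or 7 or time-restricted 6 or 12 and Nes without ad libitum 6 or 7 or time-restricted 12. In the later positions the log2 change of Scnn1a was −0.03 (adjusted p = 0.938, edgeR).

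Red cell transcripts also differed. Of 7 genes tested in the erythrocyte list 4 rose, and 1 did in the later positions. Their median log2 change was 2.85 in FAN and 1.18 in vehicle, and the interaction was called for 0 of them. The alpha globin genes Hba-a1 (3.48) and Hba-a2 (3.67) rose, as did the beta globin genes Hbb-bs (2.85) and Hbb-bt (3.74), and near-identical copies can share reads. Hba-a1 measured 0.293, 0.369, 0.552 and 0.49 CPM with ad libitum and 5.56, 2.49, 7.98 and 1.77 CPM with time-restricted feeding. The Hba-a2 and Hbb-bt calls were lost without ad libitum 6 or 7, the former also without time-restricted 11 and the latter without ad libitum 12, and Hbb-bs lost its call without ad libitum 6, 7 or 12 or time-restricted 6 or 11. Summed adipocyte markers ran from 0 to 62.7 CPM with ad libitum and from 0.393 to 39.9 CPM with time-restricted feeding, and urothelial markers from 7.53 to 52.6 and from 3.3 to 63.1 CPM. Of 10 adipocyte and 7 urothelium genes tested by edgeR none passed over 8 libraries, 1 and 0 had an unadjusted p under 0.05, and 1 adipocyte gene passed without ad libitum 6. The part of red cells, fat or urothelium in other results was not tested.

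Clock genes keep daily time, and feeding can set them in peripheral organs. Of 22 genes 7 rose and 2 fell, with a median of 0.18 that became −0.48 with library size scaling, and the hour of collection is not given in the sources used here. Of 5 activators 2 rose, among them Rora (0.61), and of 10 repressors Nr1d2 rose (0.63) and Bhlhe40 fell (−0.60). These genes were named after their values were seen, and Rora and Nr1d2 stood at −0.03 and −0.02 with library size scaling. Arntl had a log2 change of −0.60 (adjusted p = 0.137), Per2 0.26 (adjusted p = 0.237), Nr1d1 −0.96 (adjusted p = 0.114, and 0.0294 without ad libitum 12) and the output factor gene Dbp 0.18 (adjusted p = 0.715). No clock gene fell without ad libitum 6, and a single one did without time-restricted 10 or 12. Another output factor gene, Hlf, which measured 35.7, 27.8, 20.5 and 16.9 CPM with ad libitum and 79.7, 51.1, 55.5 and 77.1 CPM with time-restricted feeding, rose by 1.38 ± 0.22 (adjusted p = 0.000124), and its groups did not overlap. Its relative Tef rose by 0.61 (−0.04 with library size scaling).

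The counts of this paragraph stand beside 17.9% higher and 13.9% lower over all genes tested. Of 14 glucocorticoid receptor and target genes 7 rose, and 4 did without ad libitum 7 or 12, with a median of 0.44 that became −0.20 with library size scaling. Tsc22d3, which encodes the anti-inflammatory protein GILZ, rose by 0.83 and Klf9 by 1.14, while Fkbp5 had a log2 change of 0.37 (adjusted p = 0.228). Pdk4, described above, is in this list too. Among heat shock genes 4 of 12 rose, of which Hspd1 (0.93), Hspe1 (1.06) and Hspa9 (0.78) encode chaperones of mitochondria, and of the unfolded protein response 2 of 17 did. The median of both groups together, 0.06, became −0.58 with library size scaling. Of 17 immediate early genes 2 fell, Fosl2 (−0.69) and Nr4a1 (−0.96), whose calls were each lost without any of several single libraries (ad libitum 6 or 7 and time-restricted 10 or 12 for both, and ad libitum 12 for Nr4a1). The falling count was 0 in the later positions (beside 2.34% of all genes tested there), 5 without ad libitum 10 and 4 without time-restricted 6. Atf3 had a log2 change of −0.50 (adjusted p = 0.148, and 0.0263 without time-restricted 6).

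Folate genes were examined because the column names carry the word folic. Of 20 genes tested 10 rose and 1 fell, with a median of 0.39 that became −0.26 with library size scaling. No folate gene fell without ad libitum 7. Folr1, the folate receptor gene and route of folate into proximal tubule cells, measured 128, 104, 96.4 and 60.6 CPM with ad libitum and 159, 162, 174 and 221 CPM with time-restricted feeding, a log2 change of 0.88 ± 0.18 (adjusted p = 0.00128). Its groups did not overlap. The folate enzyme gene Ftcd rose by 1.32.

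Hormone genes of the kidney rose in 5 of 11 cases, with a median of 0.49 that became −0.15 with library size scaling. The parathyroid hormone receptor gene Pth1r (0.85), the vitamin D receptor gene Vdr (0.69, adjusted p = 0.0552 without time-restricted 11) and Kl (0.70), which encodes klotho, rose. The Kl call was lost without ad libitum 7 or 12 or time-restricted 6 (adjusted p = 0.0504 to 0.0823). The renin gene Ren1 measured 36.1, 31.3, 14.5 and 11.5 CPM and 25.5, 31.2, 47.9 and 28 CPM (log2 change 0.50 ± 0.31, adjusted p = 0.224). Its log2 change was 1.47 in the later positions (adjusted p = 0.00925, edgeR) and −0.43 in the earlier ones, which hold a lone time-restricted library.

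The largest single changes among named genes averaging 5 CPM or more, without overlap, were those of Akr1c18 on the higher and Dio2 on the lower side. Akr1c18, a steroid-reducing enzyme (ENSMUSG00000021214, GRCm38 chromosome 13, 4132615 to 4150654), measured 1.7, 1.8, 3.86 and 1.91 CPM with ad libitum and 34.7, 31.3, 16.8 and 41.1 CPM with time-restricted feeding, a log2 change of 3.77 ± 0.51 (adjusted p = 6.75e-05). Its relative Akr1c14 rose by 2.86, the arachidonate hydroxylase gene Cyp4a12a by 3.09, the nuclease gene Dnase1 by 2.96, the tyrosine-breakdown gene Hpd by 2.73, the methyltransferase gene Inmt by 2.70, Ctxn3 by 3.45 and Angptl7 by 2.69.

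Dio2, which activates thyroid hormone (ENSMUSG00000007682, GRCm38 chromosome 12, 90724552 to 90738438), measured 9.57, 9.82, 7.45 and 20.2 CPM with ad libitum and 1.32, 0.481, 0.314 and 0.372 CPM with time-restricted feeding, a log2 change of −4.16 ± 0.71 (adjusted p = 0.000364). Its highest time-restricted value stood below its lowest ad libitum value, as the rule that picked this gene required. The matrix-related genes Megf6, Scube1 and Cpxm2 fell by 2.48, 2.29 and 2.28. The collagen genes Col12a1 and Col15a1 fell by 2.20 and 2.01, with adjusted p = 0.158 and 0.11 in the later positions. F13a1, a coagulation factor of macrophages, fell by 2.26, the ligand gene Tnfsf8 by 2.13, the motor gene Kif1a by 2.10 and the homeobox gene Alx1 by 2.04. In the adrenal cortex list, whose steroid genes Cyp11b1 and Cyp21a1 did not pass the filter on low counts, the corticotropin receptor gene Mc2r fell by 2.17.

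**Figure D5:**
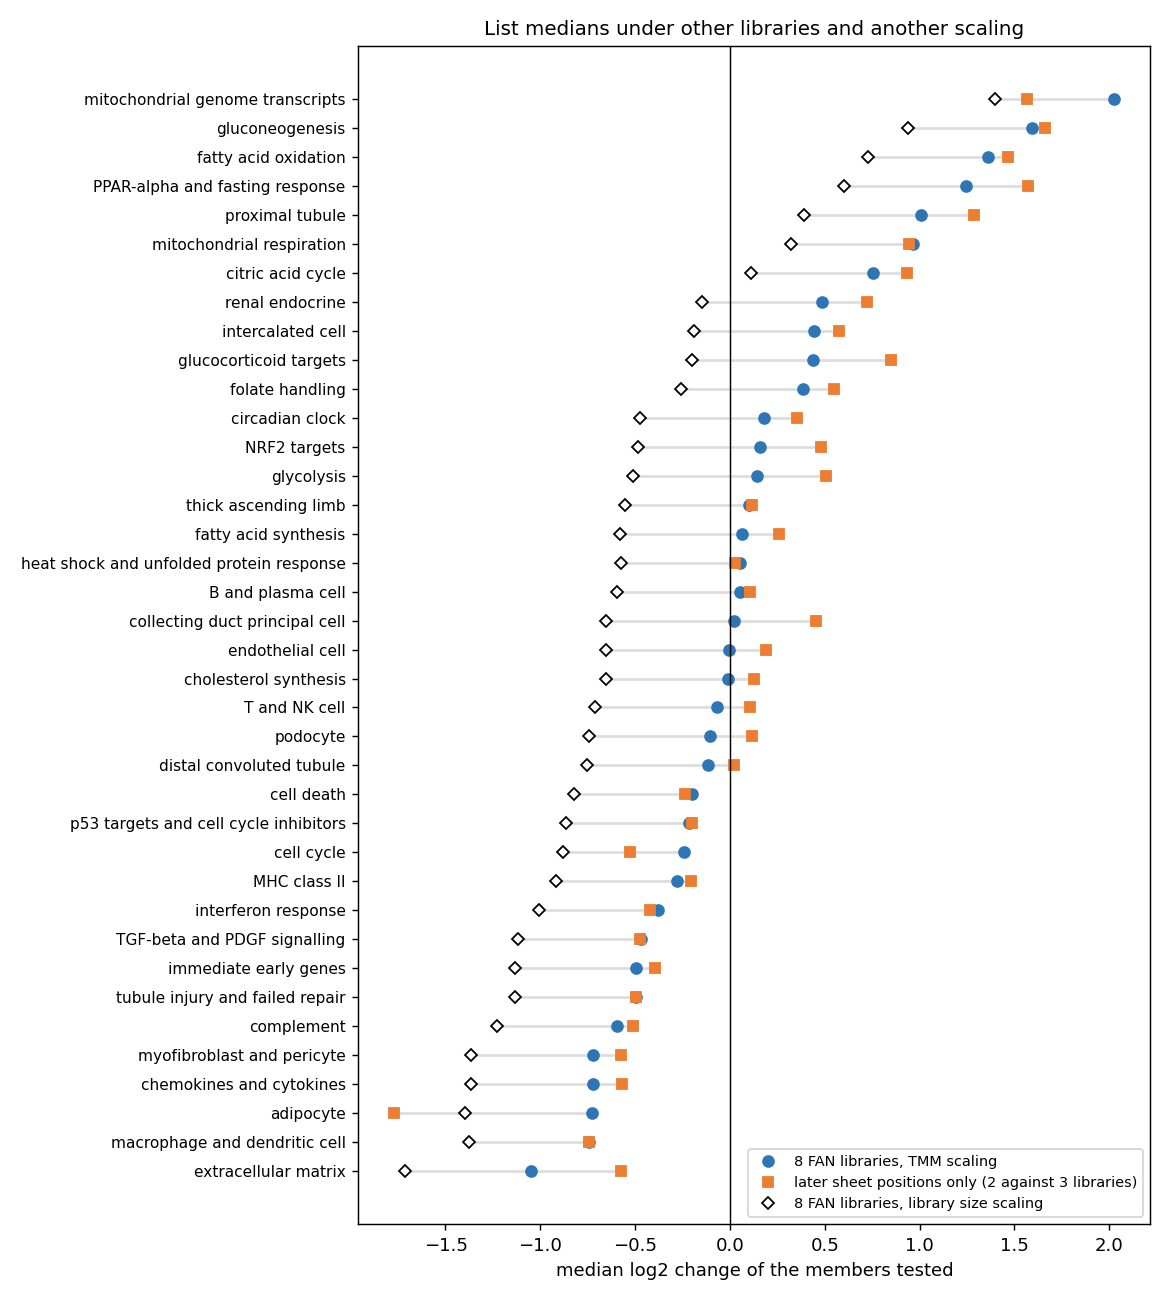
Median log2 change of each list in FAN over 8 libraries with TMM scaling (blue circles), over the 5 libraries of later sheet positions (orange squares) and over 8 libraries with library size scaling (open diamonds). Orange and blue points of the mitochondrial, proximal tubule and fatty acid oxidation lists stay right of 0 and so do their diamonds, while the diamonds of most lists near 0 lie left of it.

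Lrp2 averaged 386 ± 112 CPM with ad libitum and 1039 ± 133 CPM with time-restricted feeding in FAN mice, and 1699 ± 167 and 1732 ± 218 CPM in vehicle mice (± SD, n = 4). Acadm averaged 255 ± 46.4, 904 ± 160.5, 1123 ± 219 and 1470 ± 112 CPM in the same order. Fn1 averaged 362 ± 182, 110.4 ± 32.1, 14.3 ± 5.21 and 13.4 ± 2.62 CPM. For Lrp2 and Acadm the time-restricted FAN mean thus lay between the ad libitum FAN mean and both vehicle means, and for Fn1 it lay below the former and above the latter. Other values went past both vehicle means. Acta2 averaged 27.7 CPM in time-restricted FAN against 52.7 (ad libitum) and 37.9 CPM (time-restricted) in vehicle mice. For mt-Nd5 these means were 15600, 12106 and 12864 CPM, and for the mitochondrial share 24.9%, 20.3% and 19.8%. How many genes lay between or beyond the means was not counted.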

How the data were processed

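The table holds raw read counts per gene as deposited by the authors. The submitters' processing notes name the mm10 build and the tools STAR 2.5.3a, edgeR 3.26.7 and FastQC 0.11.5, with no roles, and per the labels' protocols RNA came from frozen kidney powder extracted with TRIzol and libraries from a stranded TruSeq mRNA kit. Which program counted reads, and with which strand option, is not given in the sources used here, so antisense and overlapping genes are uncertain. Columns were assigned to groups by name, and FAN columns carry numbers other than those of the sample titles, so they were used as members of a group without further identity. Replicates differed by more than sampling noise (chi-square per gene at least 18.45). In FAN ad libitum this value was 21.55 between 6 and 7 and 27.14 between 10 and 12. Across these pairs, which differ in sheet position, it was 149.8 to 159.2. In FAN time-restricted it was 21.48 to 62.82. The main test treats the 4 libraries of a group as independent replicates.

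Of 52338 genes 17731 passed edgeR's filterByExpr with a minimum count of 10. The main test was edgeR 4.0.16's quasi-likelihood test in R 4.3.3 over 16 libraries with TMM factors and Benjamini-Hochberg adjustment across the 17731 genes, at a threshold of 0.05. CPM values are counts scaled by library total and TMM factor. Alternatives used DESeq2 1.42.0, limma 3.58.1, other scalings, filters and libraries. In simulated data for the FAN comparison over 17451 genes, 200 were changed, as many up as down, and libraries were drawn independently. The test recovered 56% of genes changed by a log2 of 1 and 91% of those changed by 2, with 13 false calls. The simulation held no sheet position difference and far fewer changed genes than were called here. Its count of false calls need not hold for these data. Coordinates are GENCODE M21 on GRCm38, matched by Ensembl identifier, and promoter windows are RefSeq on GRCm38.p6. Named genes were the 12 largest changes each way among called, non-overlapping genes of 5 CPM or more on average, leaving out unnamed gene models, up to 3 called members with the smallest p in each list, the 6 smallest interaction p-values each way among genes called in FAN, and a set of marker genes named whatever their result. Ehhadh, Fabp1, Pdzk1, Slc3a1, Cyp4a14, Fbp1, Cd163, Postn, Hk2, Slc7a11 and Il6 were added after their values were seen. The members and lists were chosen with earlier results of these data known. Some named genes are not reported here.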

Additional observations from a re-analysis of the deposited data

Results flagged for a closer look

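In 17 of 368 groups of 4 libraries, 1 per regimen for each of 183 named genes and for the mitochondrial share of counts, a single library stood apart from the other 3, its gap to the nearest exceeding Dixon's 95% limit. Chance alone gives such a gap in about 1 in 20 groups. FAN ad libitum 10 stood apart for Akr1c18 (3.86 CPM), Ciita (18.8 CPM), Cyc1 (142 CPM), mt-Nd5 (5409 CPM) and Hbb-bt (0.749 CPM). FAN ad libitum 6 stood apart for Vnn1 (72.7 CPM). FAN ad libitum 7 stood apart for Nat8 (46.1 CPM) and Arntl (6.21 CPM). FAN time-restricted 10 stood apart for Hspe1 (224 CPM). FAN time-restricted 11 stood apart for Stat2 (42.1 CPM). FAN time-restricted 12 stood apart for Dcdc2a (53.1 CPM), Clu (293 CPM), Pgk1 (269 CPM), Acy1 (119 CPM), Hnf4a (435 CPM) and Ppara (19.1 CPM). FAN time-restricted 6 stood apart for Dio2 (1.32 CPM).

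The change with time-restricted feeding differed between FAN and vehicle mice for 92 named genes by edgeR's interaction test. Each value is the log2 change in FAN minus that in vehicle. Among proximal tubule genes it was Slco1a1 (2.63), Slc22a7 (2.38), Kap (2.52), Slc1a1 (1.27), Slc22a30 (2.09), Slc6a20b (1.62), Lrp2 (1.40), Cubn (0.98), Slc22a6 (1.31), Hnf4a (1.15), Pdzk1 (1.27) and Slc3a1 (1.02). Among mitochondrial genes it was Uqcrfs1 (1.13), Sdhb (1.28), Cyc1 (0.92), Idh3g (0.84), Suclg1 (0.89), Fh1 (0.99), mt-Nd2 (2.26), mt-Nd5 (1.85) and mt-Nd6 (1.76). Among fatty acid oxidation, PPAR-alpha and gluconeogenesis genes it was Eci2 (0.84), Hadh (1.29), Pex11a (0.83), Vnn1 (1.2), Cyp4a10 (1.46), Khk (1.58), Slc37a4 (1.59), Acadm (1.44), Ehhadh (1.65) and Fbp1 (1.67). Among the other genes with a positive difference it was Akr1c18 (3.28), Cyp4a12a (2.72), Dnase1 (3.0), Akr1c14 (3.03), Hpd (3.27), Inmt (2.73), Angptl7 (2.54), Cd55 (1.09), Fth1 (1.11), Gpx4 (1.09), Cldn10 (0.83), Fxyd2 (1.27), Pvalb (1.48), Tpi1 (0.68), Pgk1 (0.60), Hmgcs1 (1.36), Cyp51 (1.39) and Me1 (1.54). Further positive values were Acss2 (1.47), Gpam (0.71), Hlf (1.44), Tsc22d3 (1.15), Gclm (1.29), Nqo1 (0.81), Hspd1 (0.82), Hspa9 (0.66), Hspe1 (1.14), Ftcd (1.57), Pth1r (0.86), 0610006L08Rik (2.16), Acy1 (2.08), Nat8 (2.36), Cmbl (1.94), Hsd3b3 (2.03) and Sugct (1.92). Among the other genes with a negative difference it was Dio2 (−3.46), Megf6 (−2.25), Scube1 (−1.98), Cpxm2 (−1.64), F13a1 (−3.20), Alx1 (−2.09), Tpm1 (−0.98), Clu (−1.31), Col4a1 (−1.07), Lamb1 (−0.68), Smad3 (−0.72), Mrc1 (−0.95) and Nfkb1 (−0.87). Further negative values were Stat3 (−1.18), Zmat3 (−0.74), Mc2r (−4.43), Cdk6 (−0.92), Pxdn (−1.22), Col5a2 (−1.80), Tmem132a (−1.90), Mapkapk3 (−0.88), Nrep (−1.49), Lcn2 (−1.80), Fn1 (−1.61), Cd163 (−2.37) and Slc7a11 (−3.52).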

How the results depend on the processing

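Of 183 named genes, 78 kept their direction and side of the threshold under every alternative run and 105 changed at least once. The count of genes called with time-restricted feeding in FAN, 5639 with TMM, was 11502 with library size scaling, 9304 with voom and 2129 in the later sheet positions. It ran from 4196 to 6314 when single libraries were left out. It was 5736 with RLE factors, 6259 with DESeq2, 4644 with FAN libraries alone and 4246 with sheet position as a covariate. Column numbers 6, 10 and 12 occur in both FAN groups but do not pair libraries (correlations of deviations −0.128, −0.05 and −0.25), and with the replicate block over these pairs 2336 genes were called. The interaction, with 1625 genes called, gave 6631 with library size scaling, 5264 with voom and 1160 to 2371 without single libraries. It was not refitted with sheet position as a covariate. The vehicle comparison, with 0 called, gave 58 with DESeq2, 35 with voom and 0 to 4 without single libraries. Members of the lists called numbered 414, and 269 in the later positions. The difference in mitochondrial share ranged from 13.5 to 16.12 percentage points without single libraries, at an exact permutation p of 0.0571, the smallest that 7 libraries allow. With library size scaling the log2 change turned to −0.0942 for Fas, −0.0505 for Clic5, −0.0442 for Tef, −0.54 for Ppargc1a and −0.39 for Per2. In the earlier sheet positions, where a lone time-restricted library was assumed to vary like ad libitum 6 and 7, it turned to −0.15 for Vdr, 0.42 for Mki67, −0.49 for Slc5a2, −0.50 for Ppara, −0.43 for Ren1 and −0.10 for Cyp4a14. Causes were not tested. A count of 3, read as the detection floor, was 0.0908 to 0.241 CPM in the FAN libraries, so changes of genes near that level are poorly measured.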
